A study of Mus musculus with 2 samples.

Results

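Among the 31053 genes of the count tables, 7 code for surface receptors of mature B cells or belong to the axis of the survival factor BAFF: Fcer2a, Cr2, Fcmr, Cd22, Cd72, Tnfrsf13c and Tnfsf13b. They are given by symbol and were selected on measured values, the UMI counts of Fcer2a, Fcmr and Cd72, which differed between the libraries, so the levels of these 3 genes in B cells are a description of a chosen pattern and support nothing further. Each was measured by droplet single-cell RNA sequencing from the 3′ end of transcripts in bone marrow of C57BL/6 mice of 6 months of age, labelled as having atherosclerosis. By label, the mice of both groups lacked Apoe, the apolipoprotein whose loss raises plasma cholesterol. Apoe transcripts were nevertheless among the leading genes of a mature B-like cluster in each library, and 3′ tags do not check that label. The group titled Experimental also lacked the integrin beta 3 gene by its label, Apoe(-/-), Itgb3(-/-), and is called the null-labelled library here. The group titled Control kept it, Apoe(-/-), Itgb3(+/+), and is called the control-labelled library. Each group is 1 library, the sources used here give no number of mice in it, and no test between genotypes was possible. Intervals in brackets are exact 95% intervals for counting error, and the variation between mice is not in them.

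B cells arise in bone marrow from pro-B and pre-B cells, become immature B cells when they first carry surface IgM, and mature into IgD-bearing cells, many of which recirculate. BAFF, encoded by Tnfsf13b and made largely by myeloid and stromal cells, binds the BAFF receptor, encoded by Tnfrsf13c, and keeps maturing B cells alive through the alternative NF-kappa B pathway. The other receptors tune what the B cell receptor senses: Fcer2a (CD23) is the low-affinity IgE receptor, Cr2 (CD21 and CD35) binds complement fragments, Fcmr binds the Fc part of IgM, and Cd22 and Cd72 are inhibitory coreceptors that recruit the phosphatase SHP-1.

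On the mouse build mm10 (GRCm38, GENCODE vM21 annotation) Fcer2a lies at chr8:3681737-3694175 on the minus strand, and Tnfsf13b lies on the same chromosome at chr8:10006467-10039072 on the plus strand. Fcmr (chr1:130865669-130880791, plus strand) and Cr2 (chr1:195136811-195176716, minus strand) share chromosome 1. Cd22 is at chr7:30865402-30880342, Cd72 at chr4:43446462-43454628 and Tnfrsf13c at chr15:82221743-82224369, each on the minus strand. All 7 are protein-coding genes.

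RefSeq promoter windows on GRCm38.p6, from 250 bases before to 50 after an annotated start, were found for all 7 genes, 10 windows in all. The 250 bases before the start are shown for Fcer2a (chr8:3694175-3694424, minus strand, the outermost of its 3 starts) and Cr2 (chr1:195176720-195176969, minus strand), because these genes appeared latest in the B lineage and were closely alike in pattern. For Tnfsf13b, the 30 bases around its motif match are shown (chr8:10006607-10006636, plus strand), with the match in capitals.
Fcer2a: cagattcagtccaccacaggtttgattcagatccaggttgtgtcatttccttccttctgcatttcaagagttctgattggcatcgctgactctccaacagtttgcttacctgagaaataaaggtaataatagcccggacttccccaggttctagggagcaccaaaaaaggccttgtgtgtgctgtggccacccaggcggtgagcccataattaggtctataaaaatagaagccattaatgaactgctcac
Cr2: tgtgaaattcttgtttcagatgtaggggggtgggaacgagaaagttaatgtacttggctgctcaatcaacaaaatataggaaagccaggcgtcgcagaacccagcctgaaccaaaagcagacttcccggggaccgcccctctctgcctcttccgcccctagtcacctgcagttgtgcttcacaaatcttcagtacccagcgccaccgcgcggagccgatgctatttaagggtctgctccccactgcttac
Tnfsf13b: tacaaaaactGAAAGTGAAAtgcggaaggc

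On both strands, 4 motifs were searched: GAAA and GAAA parted by any 2 bases (the interferon-stimulated response element), TTCNNNGAA (STAT factors), GGGA and TTTCC parted by any 1 base (kappa B) and AGGAAGTG (ETS factors). The single match among the 10 windows was GAAAGTGAAA in a Tnfsf13b window, starting 16 bases before that window's annotated start. Of 32851 RefSeq promoter windows of 300 bases, 3.44% held the interferon-stimulated response element, 8.30% TTCNNNGAA, 0.411% the kappa B motif and 4.07% AGGAAGTG. A match describes letters only, and the absence of a match says only that these letters are not in the window. The Cr2 window held 57.3% G and C bases and 14 CG pairs, and the Fcer2a window shown held 46.0% and 3 CG pairs, against medians of 52.7% and 7 over all windows.

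The null-labelled library kept 2903 cells with a median of 9321 unique molecular identifiers (UMIs), and the control-labelled library kept 8595 cells with a median of 4812. Only 6 cell barcodes were kept in both libraries. Itgb3 had 248 UMIs in the null-labelled library (7.39 CPM) against 1391 among control-labelled cells (23.6 CPM, UMIs scaled to 1000000 per group); no source used here says which part was deleted, so 3′ tags do not check the label. B cell stages were rebuilt from clusters made within each library and named by marker lists that hold no member. Mature B-like cells numbered 184 and 356 in the null- and control-labelled libraries, small pre-B-like cells 189 and 648, and pro-B and large pre-B-like cells 139 and 357. A further 59 and 166 cells scored alike on the immature and mature lists and are called between-stage cells. No null-labelled cluster met the rule for immature B cells, which held 316 control-labelled cells.

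The markers went partly against the name of the null-labelled mature B-like cells. Levels are given as CPM, the UMIs of a gene for every 1000000 UMIs summed over the cells of a class. Cd79a, a signalling chain of the B cell receptor, stood at 386 CPM in them against 3201 in their control-labelled counterparts, and Cd79b at 303 against 2359. Cd74, the class II invariant chain, was at 6812 against 13760 CPM, and Igkc, the kappa light chain, at 2271 against 10555. T cells, which should lack Cd79a, held it at 0.896 and 20.8 CPM. Of 8 B lineage markers, 7 were at least 2-fold lower in the null-labelled cells, with Ebf1, a B lineage transcription factor, as the exception at 922 against 1669 CPM. The earlier null-labelled stages held Cd79a at 1192 to 2230 CPM, and the name mature B-like for the null-labelled cells rests on the mature list, which includes Ms4a1 and Ighd. Ms4a1, which encodes CD20, itself went against the name, at 195 CPM in these cells against 1181 in null-labelled between-stage and 1177 in control-labelled mature B-like cells. The name also covers 2 unlike null-labelled clusters: 148 cells led by Apoe, Arap2 and Btla with Cd79a at 482 CPM, and 36 cells led by Traf1, Bcl2a1b and Mir155hg with Cd79a at 67.4 CPM. The mature list scored highest of the stage lists in both, with mean log2 ratios over the other null-labelled B cells of 0.805 and -0.006. In the 36-cell cluster the list was thus not raised, and Ighd stood at 116 CPM against 175 in null-labelled between-stage cells. Ccr7 was the only mature-list gene among the 10 leading genes of that cluster.

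In the control-labelled library, Fcer2a and Cr2 were the late genes of the lineage. Fcer2a read 0.286 CPM in pro-B and large pre-B-like cells, 0 in small pre-B-like cells, 10.3 in immature, 147 in between-stage and 445 CPM (401 to 494) in mature B-like cells. Cr2 read 0.286, 0, 10.3, 30.4 and 156 CPM (130 to 185) in the same order. The step from between-stage to mature cells exceeded the counting intervals for both genes. From immature to between-stage cells the separate intervals lay apart for Fcer2a and overlapped for Cr2. No ratio interval was computed for that step, so the overlap does not settle whether Cr2 rose there. The first pair of stages could not be told apart. With a floor of 3 UMIs in place of 0 in small pre-B-like cells, mature B-like cells held 201-fold more Fcer2a and 70.4-fold more Cr2. The exact intervals allow ratios down to 163 for Fcer2a and 56.4 for Cr2. Fcer2a was also among the 10 leading genes of the control-labelled mature cluster, although no member was used in clustering.

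Fcmr was higher at each successive control-labelled stage: 2.57, 100, 315, 676 and 921 CPM (857 to 990), and the mature level was 9.18-fold (7.64 to 11.1) the small pre-B level. Cd22 was present from the earliest stage, at 40.0 and 45.0 CPM in the first 2 stages, and then stood at 242, 212 and 264 CPM, where the intervals of the last 3 stages overlap. Cd72 peaked at the immature stage: 207, 441, 965, 437 and 179 CPM. Tnfrsf13c, the BAFF receptor, peaked in between-stage cells: 60.9, 197, 642, 884 and 413 CPM. So from small pre-B-like to mature B-like cells, 5 of the 6 B cell members were at least 2-fold higher and Cd72 was 2.46-fold lower (2.05 to 2.97). Of all 3561 genes with enough counts in that comparison, 8.54% were at least 2-fold higher and 14.8% at least 2-fold lower. A gene counts as having enough at 50 CPM in either group and 30 UMIs over both.

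**Figure D1:**
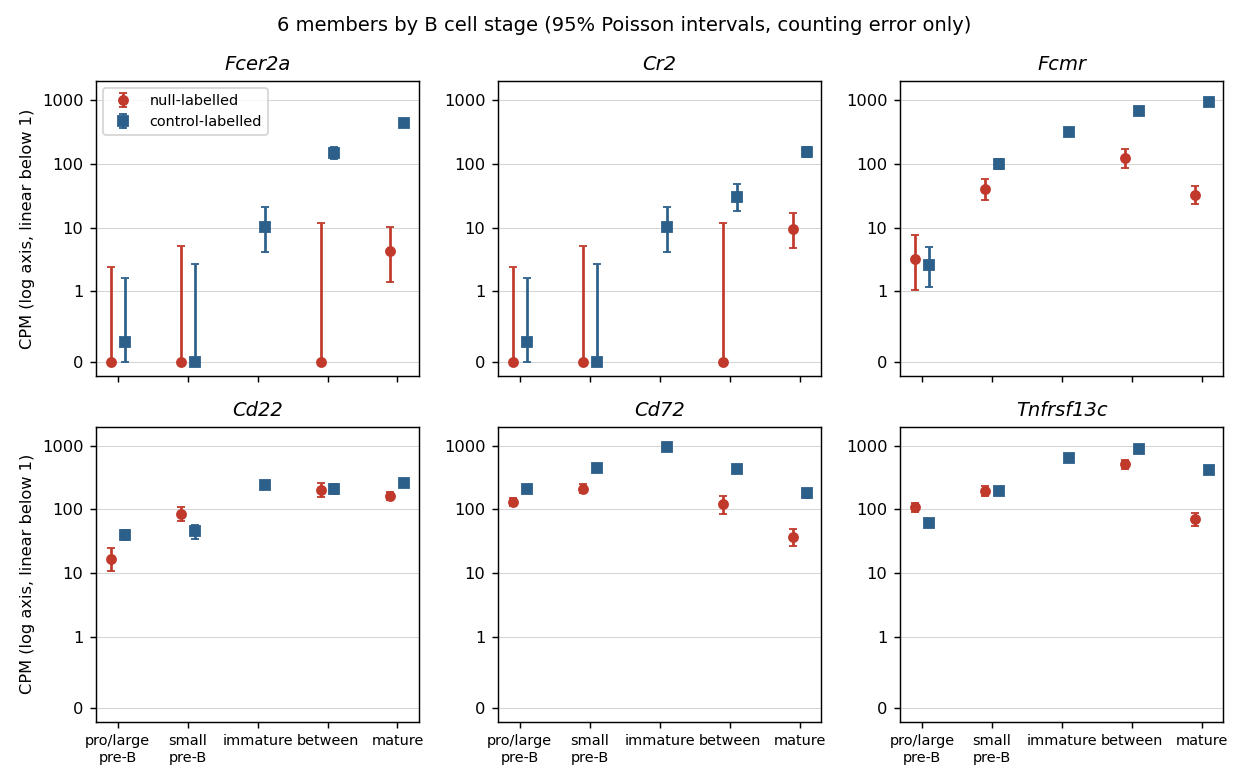
CPM of the 6 B cell members (vertical log axis, linear below 1) at 5 B cell stages (horizontal axis) in the null-labelled (circles) and control-labelled (squares) libraries, with exact 95% Poisson intervals for counting error. Control-labelled Fcer2a, Cr2 and Fcmr climb to the mature stage, where null-labelled Fcer2a stands at 4.35 CPM and Fcmr at 33.1 CPM; the null-labelled library has no immature cluster.

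The null-labelled stages followed another course. Fcmr read 3.23 CPM in pro-B and large pre-B-like, 40.9 in small pre-B-like, 123 in between-stage and 33.1 CPM in mature B-like cells, so that its mature level was 3.72-fold below that of between-stage cells (2.31 to 5.99). Tnfrsf13c read 107, 196, 508 and 69.6 CPM, and its mature level was 7.30-fold below between-stage cells (5.54 to 9.67). Cd72 read 133, 211, 120 and 36.5 CPM, and Cd22 read 16.8, 86.0, 201 and 161 CPM. Between-stage and mature Cd22 had a ratio of 0.803 (0.599 to 1.09) and could not be told apart. These falls depend on the scaling. Per 1000 UMIs of the 8 B lineage markers, Fcmr had 17.4 in between-stage and 17.2 in mature B-like cells, so it did not fall. By that scaling, chosen after the data were seen, Cd72 had 16.9 and 19.0, Tnfrsf13c 71.9 and 36.3, and Cd22 28.4 and 83.9. Of the 3 members with enough counts from small pre-B-like to mature B-like cells, none was 2-fold higher, and Cd72 (5.78-fold) and Tnfrsf13c (2.81-fold) were lower, beside 11.8% higher and 24.2% lower of 3568 genes. All 8 B lineage markers were also at least 2-fold lower in that step, and 2 of 8 were in the control-labelled library. Their part in the result was not tested.

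Between the libraries, mature B-like cells showed the widest gap in Fcer2a. The null-labelled cells held 5 Fcer2a UMIs (4.35 CPM) and the control-labelled cells 363 (445 CPM), 102-fold lower (43.5 to 317). Fcmr had 38 UMIs (33.1 CPM) against 751 (921 CPM), 27.9-fold lower (20.1 to 39.7). Cr2 followed with 11 UMIs (9.57 CPM) against 127 (156 CPM), 16.3-fold lower (8.80 to 33.4).

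Tnfrsf13c had 80 UMIs (69.6 CPM) in null-labelled and 337 (413 CPM) in control-labelled mature B-like cells, 5.94-fold lower (4.64 to 7.68). Cd72 had 42 UMIs (36.5 CPM) against 146 (179 CPM), 4.90-fold lower (3.46 to 7.08). Cd22 stood closest to equal, with 185 UMIs (161 CPM) against 215 (264 CPM) and a ratio of 0.610 (0.499 to 0.746). In all, 5 of the 6 B cell members were at least 2-fold lower in the null-labelled cells, beside 19.3% lower and 16.0% higher of 3371 genes with enough counts. The choice of members used this contrast, so nothing is read from that share. With mature cells taken instead as B cells with an Ms4a1 UMI and no UMI of the early genes Igll1, Vpreb1, Vpreb2 and Dntt, the gaps of Fcmr (56.8 against 602 CPM), Cr2 (11.2 against 60.2 CPM) and Tnfrsf13c (205 against 568 CPM) were narrower.

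Other measures moved between the same cells. The B lineage markers summed to 1920 CPM in null-labelled and 8978 CPM in control-labelled mature B-like cells, with UMIs for 8 of 8 genes in both. The 10 interferon response genes summed to 3187 against 681 CPM, with all 10 and 9 of 10 detected and Ifit1 at 0 in the control-labelled cells. Markers of red cells summed to 1612 against 9785 CPM (8 and 10 of 10 genes detected, Klf1 and Car1 at 0 in the null-labelled cells) and those of mature neutrophils to 213 against 1074 CPM (5 and 7 of 10). T cell markers were alike at 42.6 and 45.4 CPM, with Cd3e, Trbc2, Cd8a and Cd4 at 0 in both. Of 7 markers of conventional dendritic cells, 2 had UMIs in each library, with sums of 11.3 and 7.36 CPM and Xcr1, Clec9a, Cd209a and Itgax at 0 in both. Their part in the member results was not tested.

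Scaling to the B lineage markers in place of all UMIs separated the members, an alternative added after the data were seen. Per 1000 UMIs of the 8 markers, Fcer2a had 2.27 in null-labelled and 49.6 in control-labelled mature B-like cells, 21.9-fold lower (9.29 to 67.8). Fcmr had 17.2 against 103, 5.96-fold lower (4.30 to 8.49), and Cr2 had 4.99 against 17.4, 3.48-fold lower (1.88 to 7.15). These 3 genes were lower under both scalings. Cd72 had 19.04 against 19.95 (ratio 0.954, 0.660 to 1.35) and Tnfrsf13c 36.3 against 46.1 (ratio 0.787, 0.609 to 1.01), neither apart beyond counting error. Cd22 turned direction, with 83.9 against 29.4 and a ratio of 2.85 (2.33 to 3.49).

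**Figure D2:**
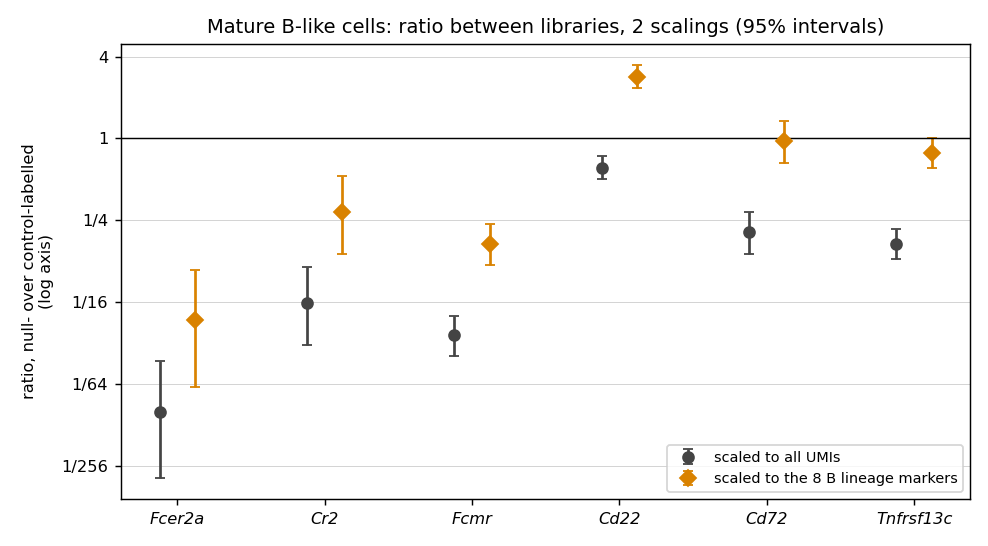
Ratio of null- over control-labelled mature B-like cells (vertical log axis) for the 6 B cell members (horizontal axis), scaled to all UMIs (circles) or to the 8 B lineage markers (diamonds), with 95% intervals for counting error. Fcer2a, Cr2 and Fcmr lie below 1 under both scalings, Cd72 and Tnfrsf13c reach 1 under the second, and Cd22 moves from 0.610 to 2.85.

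The 2 null-labelled mature clusters differed in Fcmr and, in the other direction, in Cd22. Fcmr read 40.8 CPM (28.6 to 56.5) in the 148-cell cluster and 7.49 CPM (0.907 to 27.1, from 2 UMIs) in the 36-cell cluster. These intervals do not overlap. In the same order, Fcer2a read 2.27 and 11.2 CPM. Cr2 read 11.3 and 3.75 CPM. Cd22 was at 142 CPM (118 to 169) and 225 CPM (172 to 289), intervals that do not overlap either. Cd72 was at 28.3 and 63.7 CPM and Tnfrsf13c at 61.2 and 97.4 CPM. The share of all genes with intervals apart between these clusters was not counted. Each value of Fcer2a, Fcmr, Cr2, Cd72 and Tnfrsf13c lay below the control-labelled mature level. Another pair of clusters, of 120 null-labelled and 90 control-labelled cells, had B lineage identity but was led by hemoglobin genes, and was kept apart. Fcer2a had no UMI in its null-labelled cells and 30 in its control-labelled cells. That was 19.1-fold lower with a floor of 3 UMIs in place of 0 (interval limit 14.6-fold). Fcmr was 6.80-fold lower, beside 7.27% lower and 63.6% higher of 2791 genes. In the same pair Cd72 was 3.76-fold lower (2.50 to 5.75), while Cd22 was higher (ratio 1.73, 1.23 to 2.48). Tnfrsf13c had a ratio of 0.944 (0.707 to 1.27) and Cr2, with 12 and 4 UMIs, one of 1.57 (0.477 to 6.69), neither apart beyond counting error. Scaled to the B lineage markers, Cd72 was not apart either (ratio 0.707, 0.463 to 1.06) and Tnfrsf13c was higher (ratio 2.51, 1.88 to 3.38). By that scaling Cr2 was also higher in the null-labelled cells (ratio 4.18, 1.27 to 17.8), opposite to its direction in mature B-like cells. Cd22 stayed higher. Fcmr stayed lower, by 2.56-fold (1.69 to 3.97), as did Fcer2a (interval limit 5.48-fold). Red cell markers summed to 51703 against 587657 CPM in this pair, with 9 and 10 of 10 genes detected, and their part was not tested.

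Fcmr, Cd72 and Tnfrsf13c were also lower before the mature stage, in between-stage cells. Null-labelled between-stage cells held no Fcer2a UMI and control-labelled ones 87 (147 CPM). With a floor of 3 UMIs in place of 0, Fcer2a was 15.1-fold lower in the null-labelled cells (interval limit 12.03-fold). Fcmr stood at 123 against 676 CPM, 5.50-fold lower (3.94 to 7.89), and Cd72 at 120 against 437 CPM, 3.65-fold lower (2.58 to 5.30). Cr2 had 0 against 18 UMIs, 3.13-fold lower with the same floor (interval limit 2.29-fold). Tnfrsf13c had a ratio of 0.575 (0.478 to 0.688), and Cd22, at 201 against 212 CPM, could not be told apart (ratio 0.944, 0.685 to 1.29). Of the 5 members with enough counts, 3 were at least 2-fold lower, beside 15.0% lower and 10.5% higher of 3611 genes, and 2 of the 8 B lineage markers were lower too. With stages taken from clusters of both libraries together, Cd72 stood at 255 against 484 CPM, under 2-fold. Scaled to the B lineage markers, Fcmr was 3.92-fold lower (2.80 to 5.62) and Cd72 2.60-fold lower (1.84 to 3.77). Tnfrsf13c was then nearer to equal (ratio 0.807, 0.671 to 0.967), and Cd22 was not apart (ratio 1.33, 0.962 to 1.81). By the same scaling the interval limits of Fcer2a and Cr2 were 8.57-fold and 1.63-fold lower. The B lineage markers summed to 7066 against 9924 CPM in these cells (8 of 8 genes in both), interferon response genes to 4015 against 1219 CPM (10 of 10 in both), red cell markers to 1301 against 9883 CPM (7 and 10 of 10) and mature neutrophil markers to 372 against 914 CPM (4 and 8 of 10). Their part in the result was not tested.

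In small pre-B-like cells, where 1 of the 8 B lineage markers was lower, Fcmr stood at 40.9 against 100 CPM, 2.45-fold lower in the null-labelled cells (1.63 to 3.80). Cd72 was at 211 against 441 CPM, 2.09-fold lower (1.74 to 2.51). Cd22 leaned the other way, at 86.0 against 45.0 CPM (ratio 1.91, 1.32 to 2.77), or at 53.0 against 47.6 CPM with stages from clusters of both libraries together. Tnfrsf13c was at 196 against 197 CPM, with a ratio of 0.995 (0.804 to 1.23). Scaled to the B lineage markers, Fcmr was 1.54-fold lower (1.03 to 2.39) and Cd72 1.31-fold lower (1.10 to 1.58), both under 2-fold, and the ratios of Cd22 and Tnfrsf13c were 3.04 (2.09 to 4.40) and 1.58 (1.28 to 1.95). By CPM, Fcmr and Cd72 were the 2 lower of 4 members with enough counts, beside 9.83% lower and 8.69% higher of 3671 genes. In pro-B and large pre-B-like cells, Cd72 had a ratio of 0.642 (0.547 to 0.750), Cd22 0.420 (0.265 to 0.642) and Tnfrsf13c 1.76 (1.43 to 2.17), while Fcmr had 5 and 9 UMIs.

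Cell by cell, members were compared after each cell was thinned to 1000 UMIs, since null-labelled mature B-like cells were deeper (median 5841.5 UMIs) than control-labelled (2133.5). Fcer2a was then found in 1.10% of 181 null-labelled and 36.0% of 353 control-labelled cells, and without thinning in 2.72% and 58.4%. Fcmr was found in 2.76% and 52.1% of thinned cells (17.4% and 76.7% unthinned) and Cr2 in 1.66% and 12.7% (4.89% and 26.4%). Cd72 was found in 4.42% and 16.7% (15.8% and 29.2%) and Tnfrsf13c in 6.08% and 31.7% (31.5% and 59.0%). Cd22 was found in 9.94% and 23.5% of thinned cells, and unthinned in more null-labelled (53.3%) than control-labelled cells (43.0%), an order that went against its CPM and is not read. T cells, with medians of 7135 and 3497.5 UMIs, served as the background: thinned, Cd72 was found in 0.758% and 2.53% of them and the other members in at most 1.01%.

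No member was found in 76.2% of thinned null-labelled mature B-like cells and in 12.5% of control-labelled. The null-labelled cells with 2 members numbered 4 (2.21%) and none had more, whereas 117 control-labelled cells had 2, 58 had 3, 20 had 4 and 2 had 5. Without thinning, 43, 21 and 2 of the 184 null-labelled cells had 2, 3 and 4 members, and 91, 110, 75, 31 and 6 of the 356 control-labelled cells had 2, 3, 4, 5 and 6. Cells with no member were then 23.9% and 1.12%. Within control-labelled mature B-like cells, the 208 cells with an Fcer2a UMI had Cr2 at 185 CPM and the 148 cells without had it at 116 CPM, at median depths of 2140 and 2124 UMIs. Cr2 was found in 29.8% (23.7 to 36.5) and 21.6% (15.3 to 29.1) of the same cells, intervals that overlap. Fcmr was found in 78.4% and 74.3% of them.

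**Figure D3:**
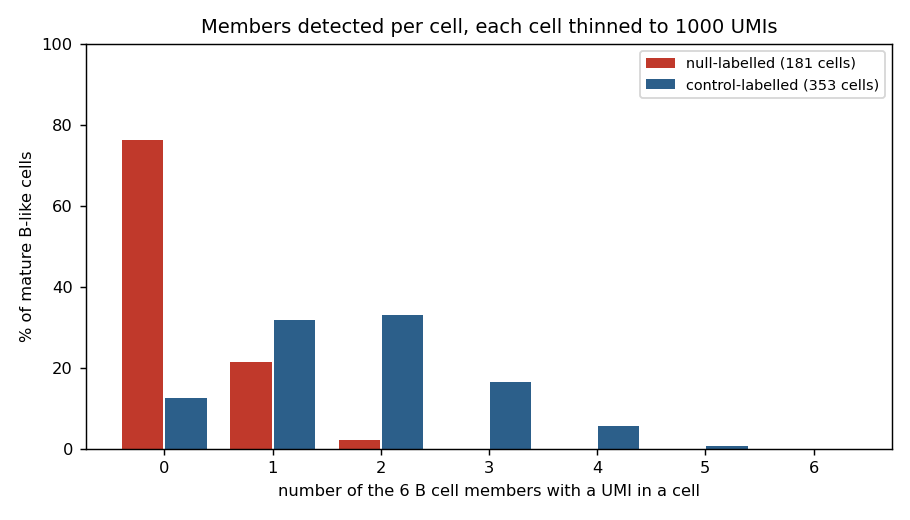
Share of mature B-like cells (vertical axis, %) by the number of the 6 B cell members with a UMI (horizontal axis), each cell thinned to 1000 UMIs, for 181 null-labelled and 353 control-labelled cells. The null-labelled bars pile up at 0 members (76.2%), and the control-labelled bars spread from 0 to 5.

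The other genes of the pathway were counted from lists of 99 genes, 69 of them with enough counts in mature B-like cells. Of these, 35 were at least 2-fold lower and 9 higher in the null-labelled cells, with a median log2 ratio of -1.01 against 0.00 over all genes, beside the same 19.3% and 16.0% (35.2% apart in either direction). Of 8 BAFF receptor signalling and survival genes, 1 was higher and none lower. Mcl1, a survival protein, was at 374 against 545 CPM, Bcl2, another, at 198 against 236, and Bcl2a1b, a relative induced by NF-kappa B, was 2.43-fold higher. Traf3, which restrains the alternative NF-kappa B pathway, had 22 and 38 UMIs, and Mtor, a growth kinase, 24 and 6, both under the level counted. Tnfrsf13b, the TACI receptor for BAFF and APRIL, was the 1 gene of the ligand and receptor list with enough counts and was lower, at 121 against 243 CPM (ratio 0.498); Sdc1, a plasma cell surface proteoglycan, had 2 and 8 UMIs.

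Receptor signalling genes were mostly lower. Of 15 activators, 8 were lower and none higher, among them Cd79a (8.30-fold), Cd79b (7.79-fold), the kinase Blk (11.6-fold) and the kinase C isoform Prkcb (9.24-fold). Of 8 inhibitors, 5 were lower and 2 higher. Siglecg, the sialic acid receptor related to Cd22, was at 57.4 against 505 CPM, Ptpn6, which encodes SHP-1, at 62.7 against 487 CPM, and the adaptor Dok3 was 22.1-fold lower. The inhibitory IgG receptor Fcgr2b (2.33-fold) and the phosphatase Ptpn22 (2.94-fold) were higher. Of 7 partners of CD23 and the complement receptors, 4 were lower and none higher. Cd55, a regulator of complement, was at 35.7 against 480 CPM (13.4-fold lower), Adam10, the protease that sheds CD23, was 2.42-fold lower, and Notch2, needed for marginal zone B cells, was 2.11-fold lower.

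Of 12 transcription factors, 9 were lower and 1 higher. Klf2, a factor of resting lymphocytes, was at 194 against 1327 CPM, Spib was 13.6-fold and the coactivator Pou2af1 8.15-fold lower, and Irf8 was 2.52-fold higher. Among follicular genes, which overlap the list used to name mature cells, 5 of 10 were lower and 1 higher: Ighd, the IgD heavy chain, at 281 against 1346 CPM, Bank1 at 67.9 against 651, and H2-Ob at 42.6 against 501, with the chemokine receptor Ccr7 2.60-fold higher. Of 3 marginal zone and B-1 genes, Plac8 was at 1417 against 482 CPM and Mzb1 at 44.4 against 464, and Zbtb32 had 31 and 3 UMIs (ratio 7.33) below the level counted.

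Activation genes leaned upward, with 3 of 5 higher and 1 lower. Cd86, a costimulatory ligand, was at 222 against 54.0 CPM, Myc, a growth factor-induced transcription factor, at 164 against 15.9 CPM, and Cd83 was 2.18-fold higher. Cd69 was at 341 against 227 CPM, and Fas, the death receptor, had 36 UMIs against 1. Myc, like Bcl2a1b and Ccr7 above, was among the 10 leading genes of the 36-cell null-labelled cluster, the one with the lower Cd79a. The pathway genes were not compared between the null-labelled mature clusters. Of 9 interferon response genes, 8 were higher, led by Gbp2 (825 against 11.0 CPM) and Ifitm3 (425 against 7.36 CPM), and Ifi27l2a was at 608 against 456 CPM. In between-stage cells 15 of 73 pathway genes were lower and 7 higher, beside 15.0% and 10.5% of all genes, and in small pre-B-like cells 9 of 61 were lower and 4 higher, beside 9.83% and 8.69%.

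**Figure D4:**
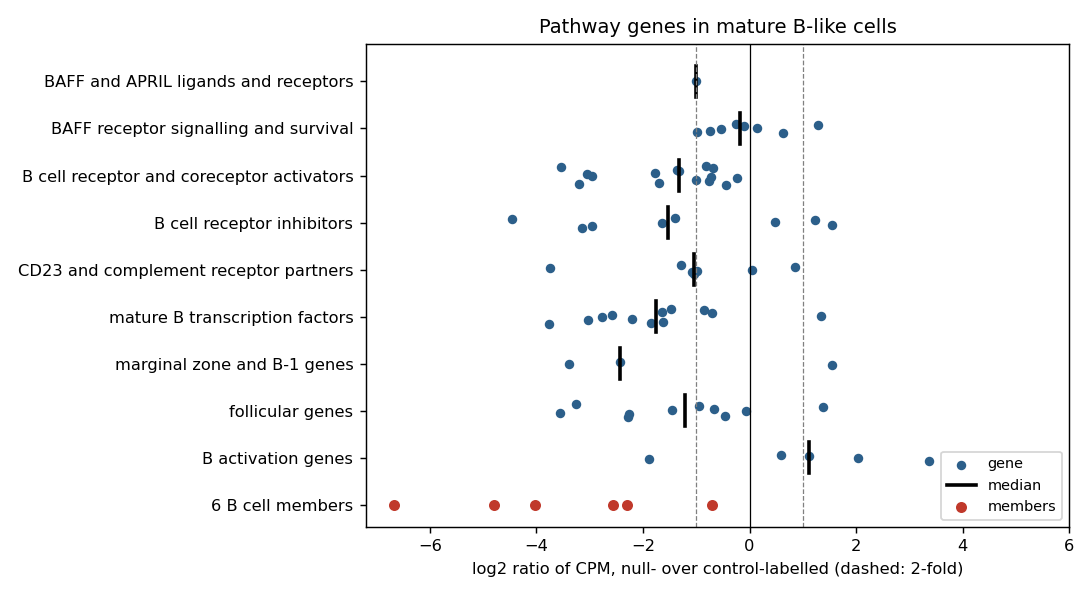
Log2 ratio of CPM, null- over control-labelled mature B-like cells (horizontal axis), for the genes with enough counts in each list (rows), with the list median as a bar, dashed lines at 2-fold and the 6 B cell members in the lowest row. The B activation genes lie mostly to the right of 0 and the receptor activators to the left, with the members from -6.68 (Fcer2a) to -0.71 (Cd22).

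Tnfsf13b, the BAFF gene, was read mainly in neutrophils, the most numerous myeloid cells of marrow. Null-labelled neutrophil-like cells held 57 UMIs in 629 cells (7.37 CPM, 5.58 to 9.55) and control-labelled cells 821 in 2873 (52.5 CPM, 49.0 to 56.2), 7.12-fold lower (5.44 to 9.49), beside 12.9% lower and 11.2% higher of 2136 genes. Immature neutrophil-like cells held 41 UMIs (6.06 CPM) against 600 (64.1 CPM), 10.6-fold lower (7.70 to 14.9), beside 11.6% lower and 11.7% higher of 2028 genes. Mature neutrophil-like cells, which carry granule and migration genes, held 16 UMIs (16.5 CPM) against 221 (35.2 CPM), 2.13-fold lower (1.29 to 3.80) and under the level counted. The null-labelled sub-cluster of this class had no gene of the mature neutrophil list among its 10 leading genes, and the control-labelled ones had 3 to 6. Over all neutrophil-like cells that list summed to 323406 against 359387 CPM. Among sub-clusters of at least 20 cells, the 5 null-labelled ones of immature neutrophils lay between 3.17 and 13.4 CPM and the 8 control-labelled between 29.1 and 115 CPM. Each sub-cluster is part of 1 library, so these are not repeats of the library difference. The share of all genes with such ranges was not counted.

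The size of the neutrophil gap changed with the weight given to deep cells. With each cell thinned to 1000 UMIs, 11 and 140 UMIs remained and the levels were 17.7 against 49.9 CPM (log2 ratio -1.49), and as a mean over cells they were 10.4 against 46.5 CPM (log2 ratio -2.16). Thinned mature neutrophil-like cells read 27.4 against 35.0 CPM, from 4 and 64 UMIs. Thinned, Tnfsf13b was found in 1.77% of 621 null-labelled and 4.74% of 2808 control-labelled neutrophil-like cells, against 8.59% and 21.1% unthinned at median depths of 10690 and 4239 UMIs. T cells, as a type that should make little BAFF, had none in thinned cells of either library. Interferon response genes summed to 9430 CPM in null-labelled and 1231 CPM in control-labelled neutrophil-like cells, and red cell markers to 10849 and 29037 CPM, all 10 genes of each list being detected in both. Their part in the result was not tested.

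Monocyte-like cells, precursors of macrophages, went the other way. They held 25 Tnfsf13b UMIs (12.01 CPM) in null-labelled cells against 19 (2.87 CPM), 4.19-fold higher (2.22 to 8.05). Both levels are under the level counted. The null-labelled monocyte sub-clusters had no monocyte-list gene among their 10 leading genes, and the control-labelled ones had 1 to 5. The list itself summed to 6026 against 7504 CPM, with 9 of 9 genes detected in both. Whether the class matches between the libraries was not tested. Of the monocyte sub-clusters with at least 20 cells, the 2 null-labelled read 10.4 and 14.1 CPM, and the 8 control-labelled ranged from 0 to 9.81 CPM. In thinned cells it was found in none of 122 null-labelled and 0.641% of 624 control-labelled cells, so the order could not be read at that depth. Interferon response genes summed to 14437 against 3383 CPM in these cells, and their part was not tested. Granulocyte-monocyte progenitors had 8 UMIs (2.03 CPM) against 56 (7.64 CPM), 3.77-fold lower (1.79 to 9.16) and also under the level counted. Of those 56 UMIs, 36 lay in 1 control-labelled sub-cluster (29.7 CPM). Its leading genes held 3 markers of its own class and 3 of immature neutrophils (Fcnb, Cebpe and Camp). The other control-labelled sub-clusters of at least 20 cells read 0 to 7.61 CPM. Macrophage-like cells had 0 and 2 UMIs.

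B-lineage cells held a few Tnfsf13b UMIs in the null-labelled library, near the level of its other lymphocytes. All B-lineage cells together held 14 UMIs in 691 null-labelled cells (2.98 CPM) and none in 1933 control-labelled cells. That was 7.41-fold higher with a floor of 3 UMIs in place of 0 (interval limit 5.27-fold). The UMIs were spread over 11 cells: 5 lay in mature B-like cells, 5 in pro-B and large pre-B-like cells, 3 in 1 cell of the hemoglobin-led cluster and 1 in a between-stage cell. T cells of the null-labelled library held 2 UMIs (1.79 CPM), natural killer cells 1 (2.64 CPM) and red cells none. Null-labelled mature B-like and T cells could not be told apart (ratio 2.43, 0.397 to 25.5). Cd72 likewise showed a low monocyte signal, with 16 UMIs (7.69 CPM) in null-labelled and 9 (1.36 CPM) in control-labelled monocyte-like cells, 5.66-fold higher (2.36 to 14.5) and under the level counted.

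**Figure D5:**
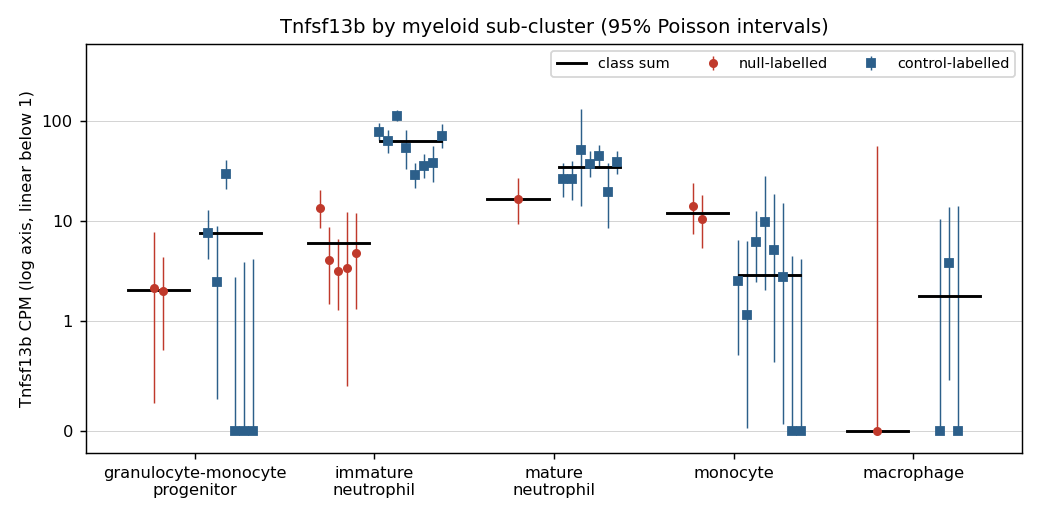
Tnfsf13b CPM (vertical log axis, linear below 1) in each sub-cluster of at least 20 cells of 5 myeloid classes (horizontal axis), null-labelled circles and control-labelled squares with exact 95% Poisson intervals, and the class sum as a bar. The immature neutrophil sub-clusters shown do not overlap between the libraries, and the null-labelled monocyte sub-clusters read 10.4 and 14.1 CPM.

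Genes with the most similar patterns were ranked by Pearson's r of log2(CPM + 10) over 26 sums of a class in a library. The sums share libraries, depth and the marker-based classes, so r is a description. Fcer2a was most like Cr2 (r = 0.914), then Il4i1 and Tlr1. Cr2 was most like Pxdc1 (0.924), Fcer2a and Rasgrp3, and Fcmr most like Fcrl1 (0.966), Ms4a1 and Bank1. Tnfrsf13c followed the B lineage markers Pax5 (0.964) and Cd79a, and Cd22 followed Scd1 (0.976), Ms4a1 and Ffar1. Cd72 was most like Sbk1 (0.947), Cnp and Chst3. Tnfsf13b was most like Arg2 (0.908), Mmp25 and Acta2. Among the members, Cd22 and Tnfrsf13c were closely alike (0.948), and Fcer2a and Cd72 were not (0.456).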

How the data were processed

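The deposited matrices hold UMI counts per gene and cell barcode, made by the authors with Cell Ranger 3.0 on mm10, per the submitters' processing notes (software version 3.1.0 per the file headers). Barcodes numbered 4281 and 12764. Cells under 200 genes or over 10% mitochondrial UMIs were removed (1307 and 3479), then the highest Scrublet scores at 0.8% per 1000 cells (71 and 690 cells; the automatic threshold marked 5 and 365). Cells were clustered with scanpy 1.11.5 (2000 variable genes, 30 components, Leiden), without the members, and B cells were clustered again within each library. Summed counts were scaled to CPM, and calls use 2-fold on 50 CPM and 30 UMIs, with no p-values. Ratio intervals come from the binomial split of UMIs and Poisson intervals from scipy 1.17.1; the ratio code was tested on simulated data. Members and gene lists were chosen with earlier results of these data known, and stage naming rules were set after member values had been seen. From each list the 2 highest genes and the 2 of largest ratio are named, and for each member the 3 most similar genes, except 1 that is not reported here. Alternatives covered cell filters, doublets, scaling, weighting, thinning, free RNA, stage definition and the CPM minimum.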

Additional observations from a re-analysis of the deposited data

How the results depend on the processing

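No paired analysis was possible because each genotype label has 1 library, and for the same reason no library could be left out. Values are log2 ratios, null- over control-labelled. With at most 5% mitochondrial UMIs, which left 26 and 38 mature B-like cells, Fcer2a was at -5.02 (from -6.68). Fcmr had no null-labelled UMI and was at -5.55 with a floor of 3 UMIs (from -4.80). At that limit 28 pathway genes were 2-fold apart (8 higher, 20 lower) in place of 44. As a mean over cells, Cd72 was at -1.72 (from -2.29) and neutrophil Tnfsf13b at -2.16 (from -2.83), and thinned to 1000 UMIs the latter was at -1.49. With mature cells taken by an Ms4a1 UMI, Fcmr was at -3.41. Scaled to the B lineage markers, chosen after seeing the data, Fcer2a was at -4.45, Fcmr at -2.58 and Cd72 at -0.067, and Cd22 reversed from -0.71 to 1.51. The cause was not tested. The main results moved beyond counting error in 10 of their alternatives and stayed within it, or within 1.5 times for the pathway count, in 51. Over all settings run, mature Fcer2a ranged from -7.63 to -4.45, Fcmr from -5.55 to -2.58, and monocyte Tnfsf13b from 1.41 to 2.25; thinned monocytes gave no ratio because the null-labelled cells held no UMI. Depth limits the members with few UMIs.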
